A study of Danio rerio with 24 samples.

Results

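The comparison was of the zebrafish line slincRosu3 with wild type (WT), averaged over embryos with and without dioxin, and it covered all genes of the main deposited count table. It took every library of that table, 8 of each line, which are 16 of the 24 samples of the series. The 4 groups of 4 libraries were untreated WT, TCDD-exposed WT, untreated slincRosu3 and TCDD-exposed slincRosu3, called WT control, WT TCDD and so on below. TCDD (2,3,7,8-tetrachlorodibenzo-p-dioxin, an agonist of the aryl hydrocarbon receptor) was given at 1 ng/mL from 6 hours post fertilization (hpf), and the controls were not given it. Whole embryos of all groups were collected at 48 hpf for RNA sequencing. The series title describes slincRosu3 as a CRISPR-Cas9 mutant of slincR, a long intergenic noncoding RNA at sox9b. Its zygosity, the strain of the WT fish, the number of founders of the mutant line and the number of embryos per library were not stated. The remaining line of the series was not analysed here.

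Long noncoding RNAs are transcripts without a protein product, and some of them act on the transcription of genes near them. The transcription factor Sox9b acts in the formation of cartilage and of neural crest derivatives in zebrafish, and activation of the aryl hydrocarbon receptor lowers sox9b in embryos. Zebrafish stocks carry different sets of some tandem gene copies, among them genes of class I of the major histocompatibility complex (MHC).

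The libraries held 17275522 (slincRosu3 TCDD 1) to 20100736 (WT TCDD 4) counts in all, and 24778 to 25471 genes had at least 1 count. Expression is given as CPM, that is, counts divided by the TMM-adjusted library total in units of 1000000, which sets libraries but not genes on a common scale, so levels are compared between lines and never between genes. Log2 changes are slincRosu3 against WT from the fitted model, with treatment as the second term. On the first principal component of log2 CPM, with 29.7% of the variance, 4 libraries stood apart from the other 12 at scores of -56.32 to -32.45. These were WT control 4, slincRosu3 control 4, WT TCDD 3 and WT TCDD 4, and the next library was at -18.08. The second component, with 16.8%, set WT (scores of -28.61 to 0.03469) apart from slincRosu3 (6.459 to 31.93). The labels do not say whether replicates were separate clutches, so p-values measure the spread between these libraries, which may be technical. In whole embryos, fewer cells of a type and less RNA per cell cannot be told apart.

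Of 20907 genes tested, 1166 (5.58%) differed between the lines at an adjusted p under 0.05 (edgeR's quasi-likelihood test, Benjamini-Hochberg adjusted over all genes). In slincRosu3, 570 were higher (2.73%) and 596 lower (2.85%). The counts in each direction were alike, but the large differences lay mostly on the lower side. Among the genes that were lower, 61 differed over 4-fold and 23 over 8-fold, while among those that were higher the numbers were 18 and 5. The median fold was 1.52 for the higher and 1.56 for the lower genes. The 8 libraries of one line did not overlap the 8 of the other for 142 genes with slincRosu3 above (0.679% of genes tested) and for 146 with WT above (0.698%). Many of the genes called carry no established gene name: clone or locus names made up 36% of the higher and 38.4% of the lower calls, against 23.5% of all genes tested. Without the 4 libraries that stood apart, 1108 genes were called, and 814 of them were among the 1166.

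**Figure D1:**
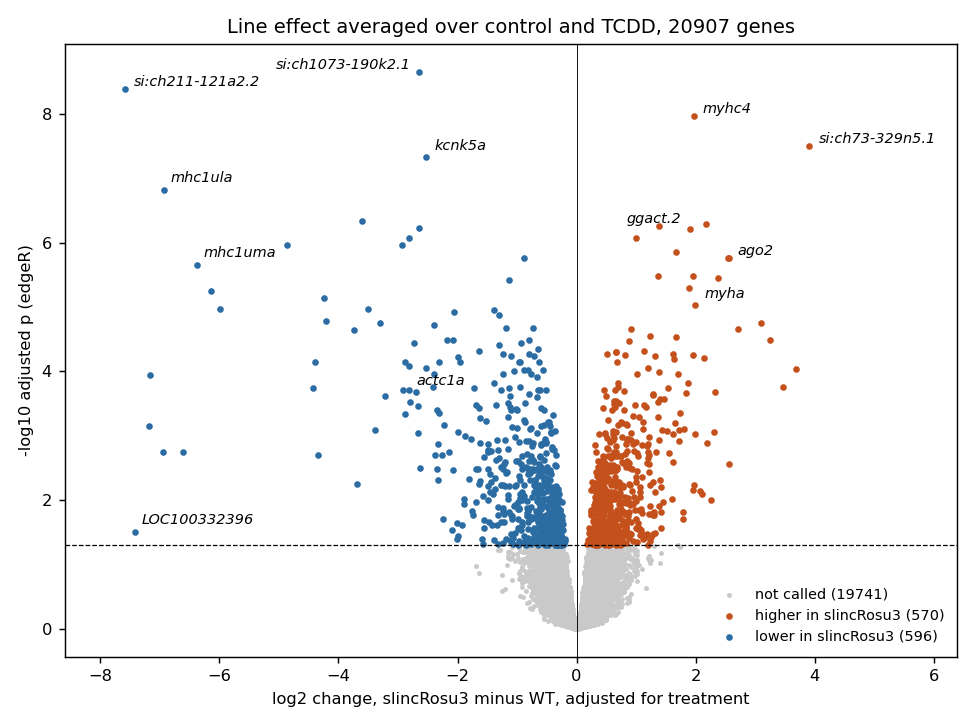
Line effect of each of the 20907 genes tested, with the log2 change of slincRosu3 against WT on the x axis and -log10 of the adjusted p on the y axis. Points past the threshold are coloured by direction, 570 higher and 596 lower, and more points lie far to the left than far to the right. The fitted change of a gene with 0 counts in a whole line depends on the prior count and is no bound.

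The genes near absent in one line were all near absent in slincRosu3. The rule asked for at most 0.2 CPM in each of the 8 libraries of one line and for 1 CPM or more on average in the other. It found 5 genes near absent in slincRosu3 and 0 near absent in WT. The count was 8 without WT control 4, and 5 to 7 when any other library was left out. At a limit of 0.5 CPM in both places, whether or not a gene was tested, the counts were 95 genes low in slincRosu3 and 31 low in WT.

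The class I MHC genes mhc1uma and mhc1ula were among the 5. Class I MHC molecules present peptides at the cell surface, and the U lineage of fish holds the classical presenting genes. The gene mhc1uma (ENSDARG00000039164) ran from 0.432 to 2.51 CPM in the 8 WT libraries with a median of 1.88, and from 0 to 0.111 CPM in slincRosu3 with a median of 0. In raw counts that was 253 in WT and 2 in slincRosu3, a scaled ratio of 125 (95% counting interval 34.2 to 1030; adjusted p = 2.23e-06 by edgeR's quasi-likelihood test). The groups did not overlap, and 7 of the 8 slincRosu3 libraries were at 0. The gene mhc1ula (ENSDARG00000059039) ran from 0.948 to 2.83 CPM in WT with a median of 1.48 and reached at most 0.052 CPM in slincRosu3. It had 247 counts in WT and a single one in slincRosu3, a ratio of 243 (43.3 to 9650; adjusted p = 1.53e-07 by the same test). All WT libraries expressed it, under both treatments.

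Another U-lineage gene, mhc1uba (ENSDARG00000075963), was lower but not near absent. It ran from 0.674 to 2.3 CPM in WT (median 1.07) and from 0 to 0.583 CPM in slincRosu3 (median 0.105), 6.16-fold lower (adjusted p = 0.00313 by edgeR's quasi-likelihood test). The lines did not overlap. The MHC class I chain partner b2m, beta-2-microglobulin, was at 2.12 CPM in WT and 1.62 CPM in slincRosu3 on average and was not called (adjusted p = 0.227 by the same test). None of the 7 tested genes of the class I Z and L lineages was called, too few genes to set apart from the 5.58% called over all genes. Without the 4 libraries that stood apart, 1 of this family was called higher. Reads of near-identical U-lineage copies could have been split or dropped in the authors' counting, so the values of these genes are uncertain.

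In the gene order of the reference assembly GRCz12tu, mhc1ula and mhc1uma are next to each other. Their neighbours on either side did not pass the test: ptprsa, a receptor tyrosine phosphatase gene, had a log2 change of 0.01 (adjusted p = 0.995) and kdm4b, a histone demethylase gene, one of -0.09 (adjusted p = 0.51), both by edgeR's quasi-likelihood test. The genes called there were thus 2 neighbours in this order.

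The other 3 genes near absent in slincRosu3 have no established name. The gene si:ch211-207c6.6 ran from 0.369 to 2.26 CPM in WT (median 1.68) and from 0 to 0.12 CPM in slincRosu3 (median 0.104), with 229 counts against 11 and a ratio of 20.5 (11.3 to 41.7). ENSDARG00000097728 ran from 0.269 to 2.21 CPM in WT (median 1.58) and reached 0.108 CPM in slincRosu3, with 213 counts against 2 and a ratio of 105 (28.7 to 872). Both passed edgeR's quasi-likelihood test, with adjusted p of 7.3e-06 and 5.64e-06.

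LOC100332396 (ENSDARG00000115161) had 0 counts in all 8 slincRosu3 libraries and 177 in WT, at least 58.1-fold lower when the 8 slincRosu3 libraries together are set at a floor of 3 counts. Its WT levels were uneven, at 0.056, 0.887, 1.87 and 0.0621 CPM in WT control 1 to 4 and at 0.108, 0.0514, 2.22 and 4.11 CPM in WT TCDD 1 to 4. It was therefore near absent in 4 WT libraries too. Its call (adjusted p = 0.0307 by edgeR's quasi-likelihood test) was lost without WT control 2, WT TCDD 3, WT TCDD 4 or slincRosu3 TCDD 4, at an adjusted p of up to 0.0582.

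**Figure D2:**
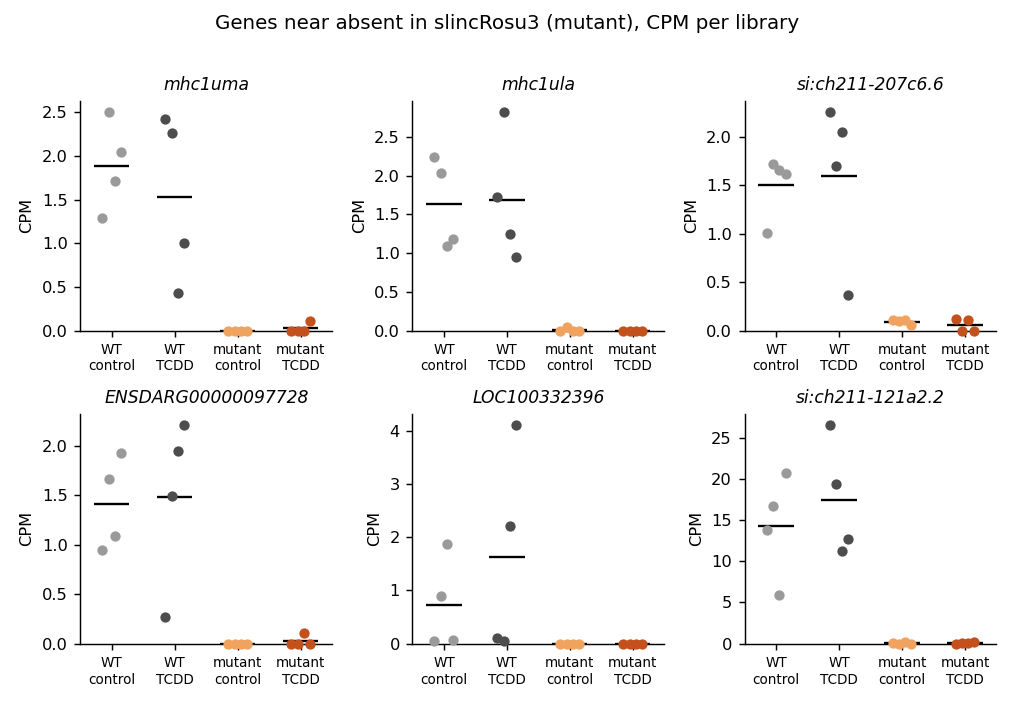
CPM (y axis, linear, from 0) in each library of the 4 groups for the 5 genes near absent in slincRosu3 (mutant on the axis) and for si:ch211-121a2.2. Points are libraries and bars are group means; the slincRosu3 points lie at or near 0 in each panel, and the WT points of LOC100332396 spread from 0.0514 to 4.11 CPM.

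Just outside the rule lay another gene with few counts in slincRosu3. The gene si:ch211-121a2.2 (ENSDARG00000039682) ran from 5.91 to 26.5 CPM in WT (median 15.2) and from 0 to 0.221 CPM in slincRosu3 (median 0.0536). It had 2330 counts in WT and 11 in slincRosu3, a ratio of 209 (116 to 419; adjusted p = 4.14e-09 by edgeR's quasi-likelihood test). Only 1 library stood over the limit of 0.2 CPM, which kept it out. Its closest neighbours in the GRCz12tu order were sirt5, a deacylase gene, at a log2 change of -0.32 (adjusted p = 0.0244), and ftr85, a finTRIM gene, at 0.19 (adjusted p = 0.781), both by the same test.

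Further genes missed the rule because WT stayed under a mean of 1 CPM. The genes si:dkey-217f16.3 and si:dkey-71b5.3 each had 0 counts in slincRosu3 and 145 in WT, at least 47.6-fold lower (adjusted p = 0.000692 and 0.000114 by edgeR's quasi-likelihood test). KDELR3, named after the human receptor that returns proteins to the endoplasmic reticulum, had a single count in slincRosu3 and 128 in WT, a ratio of 126 (22.2 to 5020; adjusted p = 1.09e-05 by the same test). Altogether 6 genes had 0 counts in all 8 slincRosu3 libraries at a WT mean of at least 0.5 CPM, and none had 0 in all WT libraries at that mean in slincRosu3.

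The nearest cases in the other direction were ENSDARG00000116047 and ENSDARG00000077045. The first had 108 counts in slincRosu3 and 9 in WT, a ratio of 12.2 (6.18 to 27.4; adjusted p = 0.000175 by edgeR's quasi-likelihood test), and ran from 0.468 to 1.17 CPM in slincRosu3 and up to 0.209 CPM in WT. The second had 199 counts against 23, a ratio of 8.78 (5.69 to 14.2), and reached 0.316 CPM in WT. The first was at 0 in 4 WT libraries, with a WT mean of 0.06 CPM. It missed the rule by its highest WT library and by a slincRosu3 mean of 0.74 CPM. The second, at a WT mean of 0.153 CPM, missed it by the limit in WT.

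Of 7 genes of leukotriene synthesis, singled out after their values were seen, 2 were lower, 1 was higher and 4 were not called. Over all genes tested, 5.58% were called. A set picked this way cannot be compared with that share, and it was not a complete list of the pathway. Leukotrienes are lipid mediators of inflammation made from arachidonic acid by arachidonate 5-lipoxygenase, after which leukotriene C4 synthase adds glutathione. The lipoxygenase copies alox5b.1 and alox5b.2 were lower in slincRosu3, with 6 counts against 144 and 16 against 224. The ratios were 23.6 (10.6 to 65.5) and 13.8 (8.31 to 24.6), with adjusted p of 0.00199 and 0.00559 by edgeR's quasi-likelihood test. In WT control the gene alox5b.2 stood at 1.4, 0.992, 1.76 and 0.931 CPM. After TCDD, WT replicates 1 and 2 held 0.108 and 0 CPM and replicates 3 and 4 held 3.08 and 3.79 CPM, and the gene reached at most 0.239 CPM in slincRosu3. Thus WT TCDD 1 and 2 lay within the slincRosu3 range, and the same libraries were low for alox5b.1 (0.0538 and 0.0514 CPM). The copies are neighbours in the GRCz12tu order, and the genes on either side, zgc:162936 (log2 change -0.04) and znf1007 (0.00), were not called.

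The leukotriene C4 synthase gene ltc4s rose. It ran from 0.156 to 0.719 CPM in WT (median 0.33) and from 0.956 to 1.72 CPM in slincRosu3 (median 1.38), without overlap, 3.89-fold higher (adjusted p = 5.47e-05 by edgeR's quasi-likelihood test). The third tandem copy alox5b.3 (adjusted p = 0.426), the lipoxygenase gene alox5a (0.879), its activating protein gene alox5ap (0.327) and the leukotriene A4 hydrolase gene lta4h (0.189) were not called by the same test.

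The 5 smallest p-values belonged to genes that were lower in 3 cases and higher in 2. The clone-named si:ch1073-190k2.1 (ENSDARG00000097973) came first, at 13.3 ± 2.58 CPM in WT and 2.12 ± 0.478 CPM in slincRosu3 (SD, n = 8 each). Its log2 change was -2.64 (SE 0.135; adjusted p = 2.22e-09 by edgeR's quasi-likelihood test). The gene si:ch211-121a2.2, described above, was next.

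The muscle myosin heavy chain gene myhc4 (ENSDARG00000035438) ran from 28.6 to 50.6 CPM in WT (median 43.3) and from 129 to 207 CPM in slincRosu3 (median 169). It was 3.92-fold higher, a log2 change of 1.97 (SE 0.117; adjusted p = 1.08e-08 by edgeR's quasi-likelihood test), and the lowest slincRosu3 library was over the highest WT one. Fitted within each treatment, the change was 1.99 in control and 1.95 with TCDD. The clone-named si:ch73-329n5.1 was 15.1-fold higher, from 0.156 to 0.745 CPM in WT and 2.85 to 6.99 CPM in slincRosu3 (adjusted p = 3.17e-08). The gene kcnk5a (ENSDARG00000023587), for a potassium channel with a pair of pore domains, fell from 12.3 ± 2.92 to 2.11 ± 0.537 CPM (SD, n = 8 each), 5.8-fold (adjusted p = 4.62e-08). Its WT libraries stood at 8.74 to 17.8 CPM and the slincRosu3 ones at 1.41 to 2.89 CPM.

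Among named genes, the Argonaute gene ago2 had the largest rise without overlap. Argonaute 2 binds small RNAs. The gene (ENSDARG00000061268) ran from 0.211 to 1.2 CPM in WT (median 0.795) and from 2.61 to 5.1 CPM in slincRosu3 (median 4.71), 5.84-fold higher (adjusted p = 1.73e-06 by edgeR's quasi-likelihood test). Its paralogs ago1 (adjusted p = 0.908), ago3b (0.54) and ago4 (0.947) were not called. Of 22 tested genes of RNA silencing only ago2 was called (4.55%, near the 5.58% of all genes).

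Other large rises covered unrelated functions. MCHR1, named after the human receptor of melanin-concentrating hormone, was 4.39-fold higher (adjusted p = 6.16e-05 by edgeR's quasi-likelihood test), at 0.308 to 2.48 CPM in WT and 3.77 to 4.99 CPM in slincRosu3. The gene ggact.2 (ENSDARG00000038248), for gamma-glutamylamine cyclotransferase, was tight in slincRosu3, at 17.9 to 20 CPM, and spread in WT, at 2.87 to 8.81 CPM. It was 3.77-fold higher (adjusted p = 6.16e-07 by the same test), its copy ggact.1 was 1.72-fold higher (adjusted p = 0.0105), and ggact.3 was not called (adjusted p = 0.287).

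The sodium-glucose transporter gene slc5a2 was 2.75-fold higher, at 0.731 to 1.99 CPM in WT and 2.38 to 5.41 CPM in slincRosu3 (adjusted p = 0.000271 by edgeR's quasi-likelihood test). The translation termination factor gene etf1a was 2.62-fold higher (adjusted p = 0.000101) and the cytochrome P450 gene cyp4v8 3.1-fold (adjusted p = 6.43e-05), by the same test. The lysosomal dipeptidyl peptidase gene dpp7, named after its value was seen, went from 31.2 to 46.2 CPM in WT to 67.2 to 80.8 CPM in slincRosu3, 2.01-fold (adjusted p = 8.59e-07). In all 4 genes each slincRosu3 library was above each WT library.

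Large falls among named genes also spanned many functions. FH, named after human fumarate hydratase, ran from 11.3 to 21.8 CPM in WT (median 15.1) and from 2.7 to 10.3 CPM in slincRosu3 (median 5.66), 2.56-fold lower (adjusted p = 0.000327 by edgeR's quasi-likelihood test). The syndecan gene sdc3, for a heparan sulfate proteoglycan of the cell surface, ran from 20.6 to 31.7 CPM in WT and from 6.81 to 16.1 CPM in slincRosu3, 2.36-fold lower (adjusted p = 5.37e-05). The integrin beta subunit gene itgb1b.2 ran from 14.5 to 20.4 CPM in WT and from 8.93 to 10.5 CPM in slincRosu3, 1.85-fold lower (adjusted p = 1.73e-06). None of the 3 had overlapping lines.

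Among genes of conjugating enzymes, 2 glutathione transferases were lower and 1 higher of 17 tested (17.6%, against 5.58% of all genes). The glutathione transferase gene gsta.2 was 2.46-fold lower, at 11.6 to 19.8 CPM in WT and 4.44 to 7.51 CPM in slincRosu3 (adjusted p = 1.32e-05 by edgeR's quasi-likelihood test), while gsta.1 was not called (adjusted p = 0.527). The thiopurine methyltransferase gene tpmt.2 was 2.7-fold lower (adjusted p = 0.00175). The T cell costimulator-like gene cd28l was 5.09-fold lower (adjusted p = 0.000401 by the same test), at 0.448 to 2.8 CPM in WT and 0.221 to 0.649 CPM in slincRosu3, where WT control 1 and WT TCDD 2 lay among the slincRosu3 values. The gene casp3b, for an executioner caspase, was 1.84-fold lower (adjusted p = 9.41e-05).

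**Figure D3:**
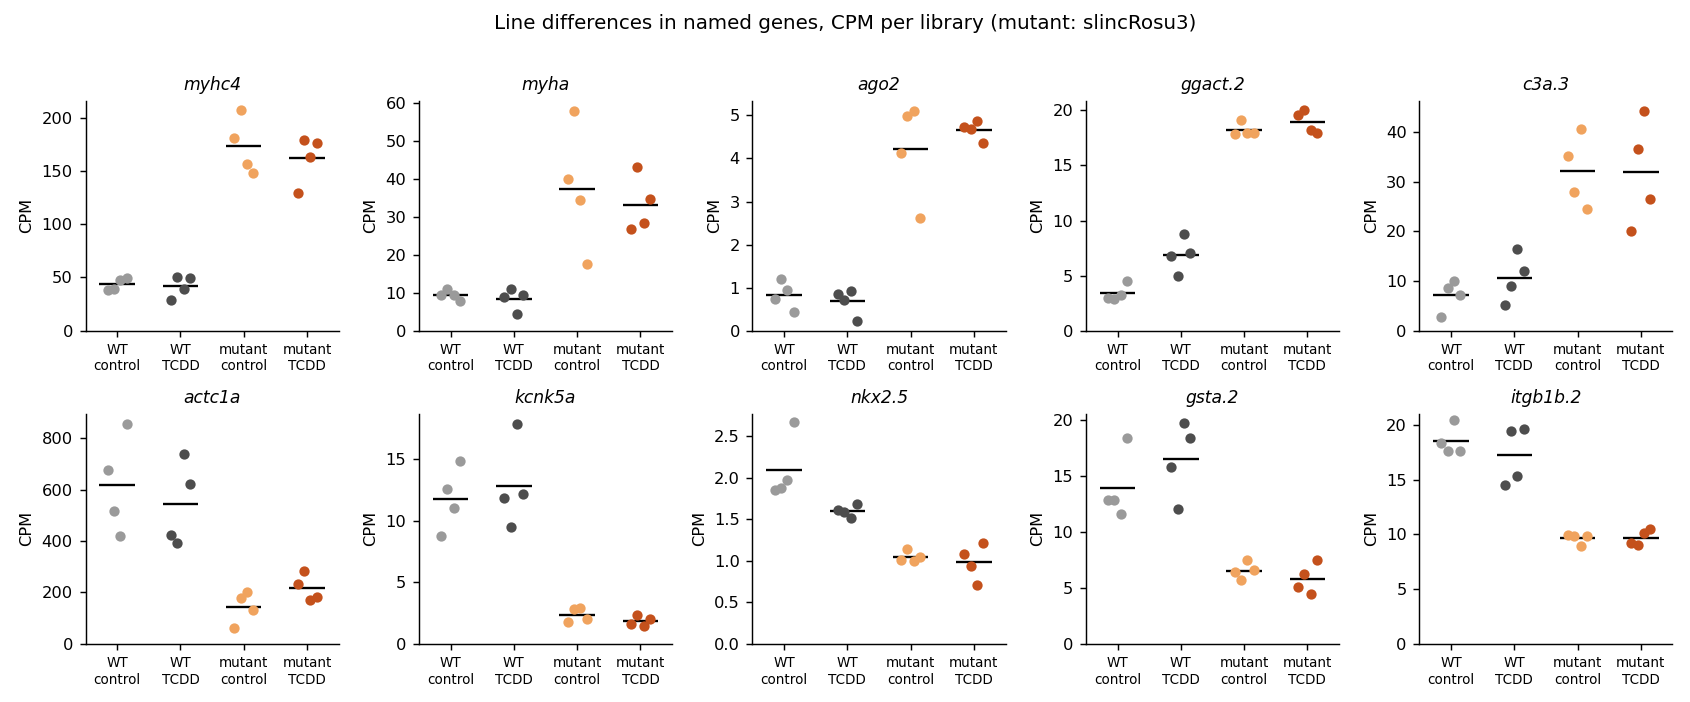
CPM (y axis, linear, from 0) of 10 genes in each library of the 4 groups; points are libraries and bars are group means. In each panel the slincRosu3 (mutant) libraries lie on one side of the WT libraries under both treatments: myhc4, myha, ago2, ggact.2 and c3a.3 above, actc1a, kcnk5a, nkx2.5, gsta.2 and itgb1b.2 below.

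Of 41 tested skeletal muscle genes, 3 were higher and 1 lower (9.76%, against 5.58% of all genes), with a median log2 change of 0.0394, against -0.00997 over all genes. Without the 4 libraries that stood apart, 5 were higher and 1 lower. Beside myhc4, the myosin heavy chain gene myha (ENSDARG00000095930) ran from 4.43 to 10.9 CPM in WT and from 17.5 to 57.8 CPM in slincRosu3, 3.98-fold higher (adjusted p = 9.23e-06 by edgeR's quasi-likelihood test). The parvalbumin gene pvalb3, for a calcium buffer of fast muscle, was 1.59-fold higher (adjusted p = 0.0166). The other fast and slow heavy chain genes myhz2 (adjusted p = 0.305), myhz1.1 (0.838), myhz1.2 (0.792), myhb (0.917), smyhc1 (0.611) and smyhc3 (0.958) were not called by the same test. Summed over the list, the level ran from 101200 to 151500 CPM in WT and from 102100 to 128200 CPM in slincRosu3. Heavy chain genes are close copies, so the authors' counting could have moved reads between them.

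The alpha-cardiac actin gene actc1a (ENSDARG00000042535) was the 1 gene of this list called lower. It ran from 393 to 855 CPM in WT (median 570) and from 60.8 to 283 CPM in slincRosu3 (median 181), 3.29-fold lower (adjusted p = 0.00018 by edgeR's quasi-likelihood test), with no overlap. Its relatives actc1b (adjusted p = 0.626), acta1a (0.686) and acta1b (0.957) were not called. The cardiac transcription factor gene nkx2.5 (ENSDARG00000018004) ran from 1.51 to 2.67 CPM in WT and from 0.703 to 1.22 CPM in slincRosu3, 1.8-fold lower (adjusted p = 0.00119 by the same test). These were the only 2 of 24 tested heart genes called (8.33%, against 5.58% of all genes, median log2 change 0.104). The atrial myosin gene myh6 was not called (adjusted p = 0.0762 by the same test).

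Complement and coagulation genes were called more often than genes at large. Complement marks and lyses microbes, and the coagulation cascade turns fibrinogen into fibrin; most factors of both are secreted by the liver. Of 49 tested members 10 were higher and 2 lower (24.5%, against 5.58% of all genes), and 37 had a positive log2 change, with a median of 0.244. Without the 4 libraries that stood apart the counts were 10 and 3. The summed level ran from 1188 to 2350 CPM in WT and from 1840 to 2307 CPM in slincRosu3, so the WT libraries enclosed the slincRosu3 range.

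The complement component gene c3a.3 (ENSDARG00000052207) ran from 2.69 to 16.5 CPM in WT (median 8.83) and from 20.1 to 44.3 CPM in slincRosu3 (median 31.6), 3.66-fold higher (adjusted p = 0.000153 by edgeR's quasi-likelihood test). Its copy c3a.2 was 2.12-fold higher (adjusted p = 0.0137), a call lost without the 4 libraries that stood apart (adjusted p = 0.0575), and c3a.1 (0.269), c3a.4 (0.0741) and c3a.6 (0.464) were not called. The complement factor B genes cfb and cfbl were 1.72-fold and 1.47-fold higher. The factor H-like gene cfhl3 was 4.22-fold higher, at 0 to 0.448 CPM in WT and 0.416 to 1.32 CPM in slincRosu3, and the properdin gene cfp and the terminal component gene c7a were 1.49-fold and 1.34-fold higher. The coagulation factor XIII subunit gene f13a1a.1 was 3.93-fold higher, at 0 to 0.504 CPM in WT and 0.318 to 1.62 CPM in slincRosu3.

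A run of 4 coagulation genes that are neighbours in the GRCz12tu order, singled out after their values were seen, changed in both directions. The factor VII gene f7 ran from 4.76 to 16.6 CPM in WT and from 16.7 to 21.6 CPM in slincRosu3, 1.65-fold higher (adjusted p = 0.00782 by edgeR's quasi-likelihood test). Its relative f7i ran from 3.47 to 10.6 CPM in WT and from 11.2 to 19.8 CPM in slincRosu3, 1.94-fold higher (adjusted p = 0.00135). Neither overlapped between the lines. The factor X gene f10 ran from 32.6 to 84.1 CPM in WT and from 23.9 to 32.3 CPM in slincRosu3, 1.66-fold lower (adjusted p = 0.00329), and the protein Z gene prozb ran from 0.592 to 2.55 CPM and from 0.21 to 0.697 CPM, 2.73-fold lower (adjusted p = 0.00396). Thus 2 neighbours were higher and 2 lower.

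Liver and yolk genes were called at 33.3% of 33 tested (against 5.58% of all genes), 6 higher and 5 lower, with a median log2 change of 0.00148. Leaving out the 4 libraries that stood apart changed this to 2 higher and 5 lower. The vitellogenin yolk precursor genes went in opposite directions: vtg1 was 2.92-fold higher (adjusted p = 0.00186 by edgeR's quasi-likelihood test), at 0.259 to 0.672 CPM in WT and 0.902 to 2.42 CPM in slincRosu3, and vtg7 was 2.82-fold lower (adjusted p = 0.00325), at 0.771 to 1.67 CPM and 0.159 to 0.993 CPM. The hepcidin gene hamp was 1.61-fold higher and the alpha-1-antitrypsin-type serpin gene serpina1 1.6-fold lower. The hemopexin gene hpx and the ceruloplasmin gene cp, 2.42-fold and 1.53-fold higher, lost their calls in 7 and 12 of the 16 fits that left out 1 library.

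Among immune cell markers, 3 of 19 tested macrophage genes were higher and none lower (15.8%, against 5.58% of all genes), with a median log2 change of 0.233. The perforin-like macrophage gene mpeg1.1 ran from 3.64 to 7.4 CPM in WT (median 5.27) and from 6.99 to 8.89 CPM in slincRosu3 (median 8.09), 1.5-fold higher (adjusted p = 0.00306 by edgeR's quasi-likelihood test). The scavenger receptor gene marco was 1.62-fold higher (adjusted p = 0.00907), at 1.14 to 2.8 CPM in WT and 2.15 to 5.05 CPM in slincRosu3. Both genes overlapped between the lines. The call of the third, the myeloid transcription factor gene spi1b (adjusted p = 0.0401), was lost in 12 of the 16 fits that left out 1 library. The summed level of the list ran from 804 to 1240 CPM in WT and from 771 to 1211 CPM in slincRosu3. Of 14 tested neutrophil genes 1 was higher and 1 lower, and no erythroid gene was called among 20.

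Other lists with called members in both directions included the cytochrome P450 genes outside family 1, with 5 higher and 5 lower of 62 (16.1%, against 5.58% of all genes), or 3 and 4 without the 4 libraries that stood apart. The epidermis list had 4 higher and 1 lower of 25 (20%). There the keratin gene krt17 was 1.99-fold and the annexin gene anxa1a 1.7-fold higher, and the keratin gene cyt1l was 1.65-fold lower. Without the 4 libraries that stood apart the split was 2 higher and 3 lower. Of 33 integrin genes 4 were higher and 1 lower (15.2%), with itgae.1 2.32-fold and itga10 1.62-fold higher beside the fall of itgb1b.2. Of 17 cathepsin genes 4 were higher and 1 lower (29.4%), with ctsl.1, for a lysosomal protease, 1.78-fold higher. Without the 4 libraries that stood apart 3 cathepsin genes were higher and none lower. Solute carriers had 23 higher and 9 lower of 369 (8.67%). The copper transporter gene slc31a1 did not overlap between the lines, at 31.4 to 41.6 CPM in WT and 49.7 to 56.3 CPM in slincRosu3, 1.42-fold higher (adjusted p = 5.32e-05 by edgeR's quasi-likelihood test).

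Several lists had small shifts of many members and few calls. Over all 20907 genes tested, 10911 had a negative log2 change and 5.58% were called. Of 45 tested crystallin genes, which encode the refractive proteins of the lens, 41 had a negative log2 change (median -0.215). The 1 called (2.22%) was crygs1, 3.51-fold higher. Of 51 proteasome genes 46 were negative (median -0.153) and 2 were called (3.92%), both higher. Of 38 cell cycle genes 31 were negative (median -0.147) and none was called. The lines overlapped in summed level, at 9107 to 13420 CPM in WT and 7860 to 11610 CPM in slincRosu3 for crystallins, at 2880 to 4385 CPM and 2811 to 3606 CPM for the proteasome and at 2720 to 5464 CPM and 2604 to 4053 CPM for the cell cycle.

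**Figure D4:**
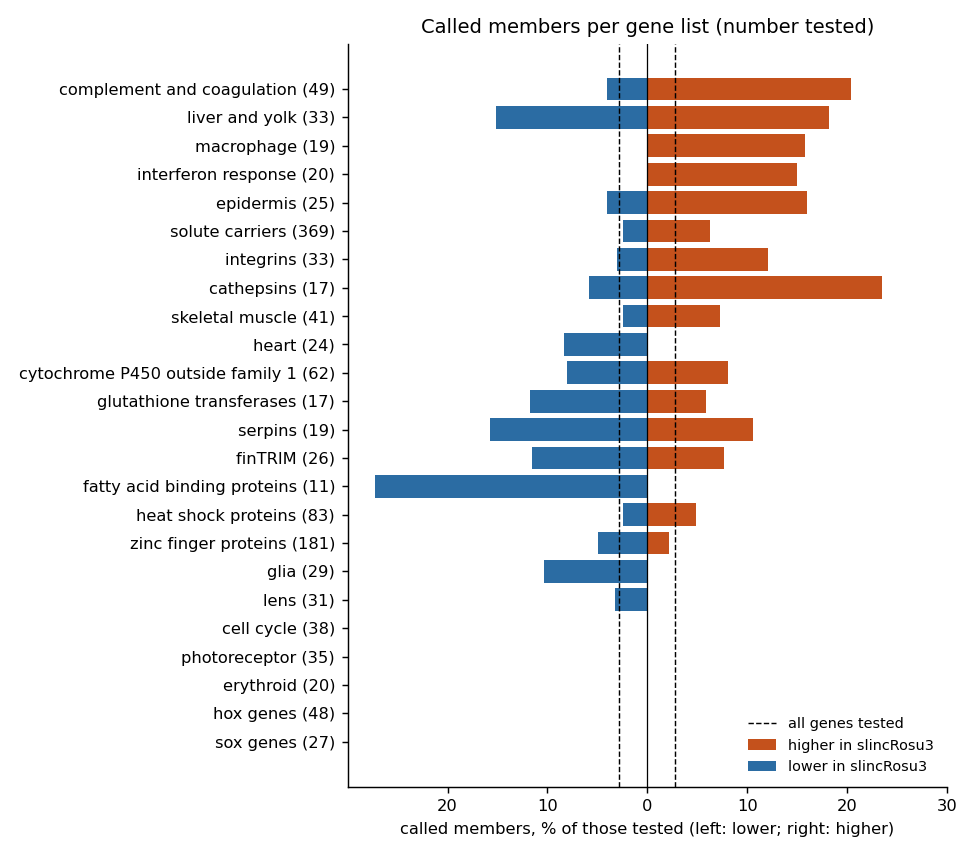
Percent of the tested members of 24 gene lists called higher (to the right) and lower (to the left) in slincRosu3, with dashed lines at the values over all genes tested, 2.73% and 2.85%. Complement and coagulation genes reach further to the right than to the left, and liver and yolk genes reach far to both sides.

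Over all 69 curated lists and symbol families with at least 10 tested members, 27 held calls in both directions, 16 only higher, 15 only lower and 11 none, and their median log2 changes ran from -0.282 to 0.244. In none of the 69 were most of the members called in 1 direction. The lists share members and were chosen with results of these data in view, and none was tested as a set.

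Several pairs of close paralogs were called in opposite directions. The mitochondrial aldehyde dehydrogenase gene aldh2.2 was 1.37-fold higher, at 27.7 to 33.7 CPM in WT and 36.9 to 46.5 CPM in slincRosu3, while its copy aldh2.1 was 1.22-fold lower, at 32.2 to 42.1 CPM and 26.6 to 35.5 CPM (adjusted p = 0.000197 and 0.0152 by edgeR's quasi-likelihood test). The glutathione transferase gene gstt1a was 1.37-fold higher and gstt1b 1.93-fold lower (adjusted p = 0.00626 and 7.1e-05). The P450 gene cyp2p10 was 1.65-fold higher and cyp2p9 3.52-fold lower (adjusted p = 0.000314 and 0.00465), and the clustered protocadherin gene pcdh1g11 was 2.34-fold higher and pcdh1g14 2.41-fold lower (adjusted p = 0.00271 and 0.003), by the same test. These pairs were singled out after their values were seen.

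Copies with numbered symbols of one stem gave a count over the whole table. Of 227 tested genes in 94 such stems, 35 were called (15.4%, against 5.58% of all genes). In 7 stems at least 2 copies were called, in opposite directions for aldh2 and muc5. All tested copies of dnase1l4 and slc12a10 were called in the same direction. The deoxyribonuclease genes dnase1l4.1 and dnase1l4.2 were 1.46-fold and 1.72-fold lower, and the chloride cotransporter genes slc12a10.2 and slc12a10.3 were 1.62-fold and 1.86-fold higher. The authors' counting could have moved reads between such copies.

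Called genes lay beside each other more often than other genes lay beside a called one. By the GRCz12tu order, in which 881 of the 1166 called genes were placed, 156 (17.7%) had a called next neighbour, against 1531 of 16878 genes not called (9.07%). In 98 of the 881 (11.1%) such a neighbour had the same direction. There were 10 runs of at least 3 called neighbours, with 32 genes in all and a longest run of 4. Only the run tuba1a, tuba1b and jph2 kept a single direction, lower throughout, and every other run held both higher and lower genes. That run was singled out after its values were seen. There the alpha-tubulin gene tuba1b was 1.51-fold lower (adjusted p = 0.00138 by edgeR's quasi-likelihood test) and jph2, for a junctional membrane protein of muscle, 1.55-fold (adjusted p = 0.0112). The alpha-tubulin gene tuba1a was 1.27-fold lower, a call lost without WT TCDD 4 or slincRosu3 control 1 (adjusted p up to 0.0531). A scan for windows of 10 placed genes with at least 5 called ones gave 6 stretches, each with calls in both directions. The stretch with the most calls, picked for that count, held 6 called genes among 14, 4 higher and 2 lower. The lower ones were casp3b and the translation factor gene guf1 (1.74-fold). The higher ones were enpp6, for a phosphodiesterase of the cell surface (1.58-fold), gnpda2, for a glucosamine-phosphate deaminase (1.49-fold), slc25a51b (1.25-fold) and ap1ar (1.2-fold), and the calls of slc25a51b and ap1ar were lost in 13 and 5 of the 16 fits that left out 1 library. Tandem copies share reads and a locus, and their part in these counts was not tested.

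The targeted gene slincR was not found in the table under that name. It was not looked for under another name, so the line labels were not checked by slincR. Its neighbour sox9b ran from 57.4 to 159 CPM in WT (median 122) and from 58.3 to 132 CPM in slincRosu3 (median 98.6), with wide overlap. The log2 change of -0.27 did not pass edgeR's quasi-likelihood test (adjusted p = 0.341), nor did that of sox9a, at 0.10 (adjusted p = 0.797). In the GRCz12tu order 11 genes near slincR were tested, the nearest 10 on one side and only sox9b on the other. Of these 1 (9.09%, against 5.58% of all genes) was called: iqck, the fourth gene away, named for an IQ motif, at 0.919 to 2.21 CPM in WT and 0.624 to 1.21 CPM in slincRosu3, 1.76-fold lower (adjusted p = 0.0146 by the same test). The median log2 change of the 11 was -0.11.

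The gene cyp1a differed by treatment far more than by line. This gene, for the cytochrome P450 induced through the aryl hydrocarbon receptor, ran from 2.75 to 5.34 CPM over all controls, from 862 to 1225 CPM in WT TCDD and from 1658 to 1927 CPM in slincRosu3 TCDD. Its averaged change was 1.46-fold (adjusted p = 0.00962 by edgeR's quasi-likelihood test). The log2 change was 0.27 in control libraries alone (adjusted p = 0.757) and 0.71 in TCDD libraries alone (adjusted p = 0.0138), and the test of the difference between these did not pass (adjusted p = 0.996). The related gene cyp1c1 was 1.42-fold higher (adjusted p = 0.00157), at 363 to 465 CPM in WT TCDD and 539 to 610 CPM in slincRosu3 TCDD. The family member cyp1d1 went the other way and had the smallest p of the 5 family 1 genes: it ran from 15.2 to 26.1 CPM in WT (median 18.8) and from 10.5 to 12.7 CPM in slincRosu3 (median 11.8), without overlap, 1.67-fold lower (adjusted p = 2.12e-05 by the same test). Its log2 change was -0.85 in control libraries alone (adjusted p = 0.0109) and -0.62 in TCDD libraries alone (adjusted p = 0.0177). The genes cyp1b1 (adjusted p = 0.715), cyp1c2 (0.258) and the receptor gene ahr2 (0.351) were not called.

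Tested gene by gene over all 16 libraries, no difference of line effect between treatments passed the threshold. With 4 libraries per group this does not show that the line effects were equal. The interaction of line and treatment called 0 of 20907 genes by edgeR's quasi-likelihood test, with a smallest adjusted p of 0.946, while 899 (4.3%) had an unadjusted p under 0.05, and DESeq2 called 0 as well. Without the 4 libraries that stood apart 20 genes passed. Among the 1166 genes of the averaged effect, 62 (5.32%) had an unadjusted interaction p under 0.05.

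Fits of each treatment alone, which share no library, called fewer genes. In control libraries edgeR's quasi-likelihood test called 149 of 20212 genes (0.737%), of which 62 (0.307%) were higher and 87 (0.43%) lower. In TCDD libraries it called 363 of 20064 (1.81%), of which 209 (1.04%) were higher and 154 (0.768%) lower. Of the 1166 genes of the averaged effect, 145 were called in control libraries alone and 291 in TCDD libraries alone. Over the 19837 genes tested in both, 71 were called in both, 55.5% of the 128 control calls and 20% of the 355 TCDD calls, and all 71 had the same direction, 33 higher and 38 lower. Of the control calls 127 (99.2%) had the same sign with TCDD and of the TCDD calls 333 (93.8%) had it in control, against 62.6% of all genes.

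Both counts moved with the replicate number as a block, to 309 in control and 217 with TCDD, which turns their order round. They also moved when single libraries were left out. The control count was 59 without slincRosu3 control 1, 68 without slincRosu3 control 3, 78 without WT control 2, 82 without WT control 3 and 86 without slincRosu3 control 2. The TCDD count was 122, 136 and 155 without slincRosu3 TCDD 1, 4 and 2.

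**Figure D5:**
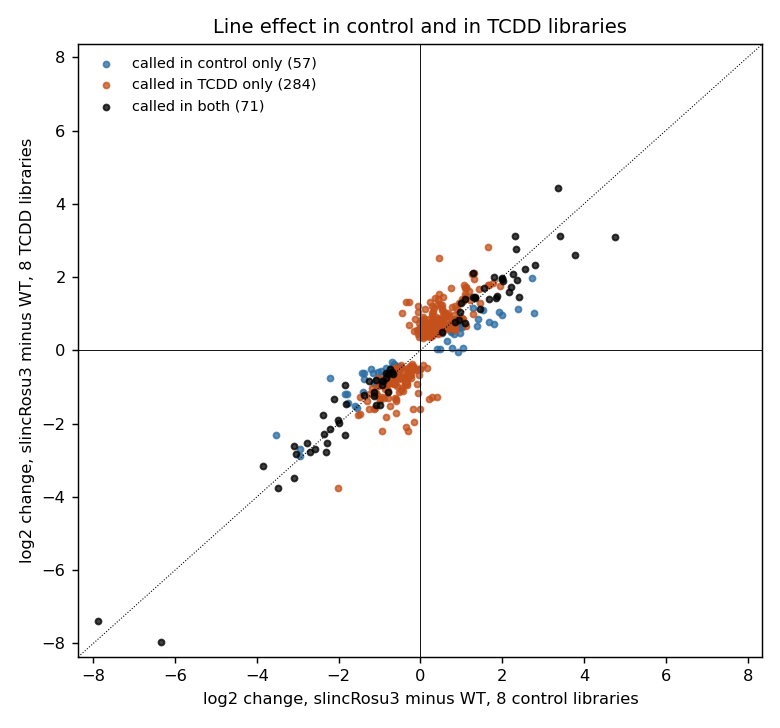
Log2 change of slincRosu3 against WT in control libraries alone (x axis) and in TCDD libraries alone (y axis) for genes tested in both and called in either. The 71 genes called in both have the same sign on both axes, beside 57 called in control only and 284 called with TCDD only.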

How the data were processed

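RNA of whole zebrafish embryos was sequenced by the authors, per the labels. The submitters' processing notes name HISAT2, STAR, DESeq2 and the build GRCz11; versions, counting program and strand setting are not given in the sources used here, so reads of overlapping or antisense genes could not be separated. The table deposited by the authors gives raw counts of 26347 Ensembl genes in 16 libraries, with zero-count genes and a low percentile removed per the name they gave the table, so counts of near-absent genes cover only the genes left in it. In one column deposited by the authors 1 value was not whole, so it was handled as estimated counts, summed over read files like the others, and rounded. No source says that it holds estimates. The authors' deposited tables of log2 fold changes and p-values served only for gene symbols. Another 94 columns of per-sample values were not used: they belong to other tables or carry a name that no label explains.

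The authors' table names 21133 genes and a reference list of gene names another 3639; 16 symbols turned into dates were dropped, and 1575 genes had none. The test was edgeR 4.0.16 (R 4.3.3): TMM, filterByExpr by group (20907 genes kept), a quasi-likelihood fit of line and treatment without a replicate block (13 residual degrees of freedom), two-sided, with Benjamini-Hochberg adjustment over all genes at 0.05. On simulated counts the procedure called 52.2% of genes changed 1.5-fold, 86.6% of those changed 2-fold and 98.5% of those changed 4-fold. The changed genes had a mean of at least 1 CPM. It also called 7 of 20707 unchanged genes. The simulated libraries were drawn independently, so they do not show how the procedure does where libraries are correlated. Principal components used log2 CPM with a prior count of 2. Ratios for near-absent genes divide TMM-scaled counts summed over a line, with a 95% counting interval or, at 0, a floor of 3 counts over the line; both cover counting error only. A gene table of GRCz12tu gave gene order only, and 84.9% of the genes tested were placed.

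Named genes were those near absent in 1 line and the 12 largest rises and falls without overlap at a mean of at least 1 CPM. To these came the 5 smallest p-values, up to 6 called members per list, and a fixed set (slincR, sox9b, sox9a, cyp1a and ahr2). Not all are printed, and others are marked as chosen after their values were seen or serve as their relatives and neighbours. The members, gene lists and rules were chosen with earlier results of these data known. Alternatives were DESeq2 1.42.0 (size factors and Wald test), other filters, a replicate block, separate group means, each treatment alone, each library left out, and the 4 libraries that stood apart left out together.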

Additional observations from a re-analysis of the deposited data

Results flagged for a closer look

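The check covered 34 genes: those near absent, the largest rises and falls, the smallest p-values and the fixed set. Among them, 12 values stood far from the other 3 libraries of their group, of 131 groups examined. Chance gives about 1 in 20 groups, a rate that does not hold for groups at or near 0 counts, where 1 read sets the range. In 4 of the 12 a single slincRosu3 library held the few reads of a gene that was at 0 in the rest of its group. These were mhc1uma in slincRosu3 TCDD 4 (0.1107 CPM), mhc1ula in slincRosu3 control 2 (0.05197 CPM), ENSDARG00000097728 in slincRosu3 TCDD 3 (0.1082 CPM) and mhc1uba in slincRosu3 TCDD 3 (0.2704 CPM). The gene si:ch211-207c6.6 was low in WT control 1 (1.009 CPM, others 1.614 to 1.722) and in slincRosu3 control 4 (0.05809 CPM, others 0.1039 to 0.1061).

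Within slincRosu3 control, ggact.2 was high in replicate 2 (19.13 CPM, others 17.87 to 17.97). Within slincRosu3 TCDD, replicate 2 was high for vtg1 (2.262 CPM, others 1.016 to 1.19) and low for tpmt.2 (0.331 CPM, others 0.7173 to 0.7572). Within WT TCDD, zc2hc1c was high in replicate 1 (3.39 CPM, others 1.336 to 1.567). In slincRosu3 control 4, one of the 4 libraries that stood apart, sox9a was low (22.25 CPM, others 47.5 to 50.97) and sox9b high (132.1 CPM, others 99.05 to 103).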

How the results depend on the processing

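The count of 1166 genes was 1169 with DESeq2 size factors, 1577 by DESeq2's Wald test, 1270 without a filter, 989 at a mean of at least 1 CPM, 1140 with separate group means, and 909 to 1473 with 1 library left out (432 to 755 higher, 477 to 718 lower). With either treatment alone, fewer samples gave 149 (62 higher, 87 lower) in control and 363 (209 higher, 154 lower) with TCDD. By DESeq2 those were 338 and 763, and with 1 library left out 59 to 141 and 122 to 380. The interaction count of 0 stayed 0 with 1 library left out, and was 20 without the 4 libraries that stood apart.

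Near absence in slincRosu3 held for 2 genes at 0.1 CPM, 18 at 0.5 CPM, 18 at a WT mean of 0.5 CPM, 0 at a mean of 2 CPM, 10 with TCDD alone, and 5 to 8 with 1 library left out. Near absence in WT held for 1 gene at 0.5 CPM and for 0 with any other single change of setting. With both limits at 0.5 CPM, 31 genes were low in WT and 95 in slincRosu3.

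Replicate numbers were not taken as pairs, since not every same-numbered pair correlated over 0.1. Over all such pairs r was -0.276 to 0.676 (median 0.184, 16 of 24 over 0.1), against -0.629 to 0.382 (median -0.0513, 23 of 72) for other pairs. Set against the 4 libraries of the other line under the same treatment, 8 of 16 libraries correlated best with their own number. Between the lines, control replicates 1 to 4 correlated at -0.19, 0.513, 0.409 and 0.676, and TCDD replicates at -0.0282, 0.28, -0.0889 and -0.00117. Whether same-numbered libraries share an origin was not tested. With a replicate block the counts were 1386 (708 higher, 678 lower), 309 in control, 217 with TCDD and 0 for the interaction.

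Of 200 called genes taken by the rule or shown, 49 lost the call in at least 1 left-out fit, 38 without the 4 libraries and 6 with the block, 0 under DESeq2, and none reversed. The causes of these shifts were not tested. Depth limits the near-absent genes: 0.2 CPM is 3.22 to 3.89 reads of a library.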

Other observations

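The summed level of endothelial marker genes ran from 610 to 641 CPM in slincRosu3 and from 560 to 627 CPM in WT. Of 31 tested members 2 were called, both higher (6.45%, near the 5.58% of all genes). The vascular cadherin gene cdh5 was 1.25-fold higher (adjusted p = 0.0215 or less in each fit that left out 1 library, by edgeR's quasi-likelihood test). The call of kdrl, for a vascular endothelial growth factor receptor, was lost in 12 of the 16 such fits. The zebrafish neural crest transcript crestin was 1.7-fold lower (adjusted p = 0.0129 by the same test), at 2.93 to 5.72 CPM in WT and 1.03 to 2.96 CPM in slincRosu3. This call was lost without the 4 libraries that stood apart (adjusted p = 0.0623). Of 33 tested pigment and neural crest genes 1 was higher and 2 lower (9.09%, against 5.58% of all genes), with a median log2 change of -0.0184. Without those 4 libraries 2 were higher and 0 lower.

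The interferon-induced gene ifitm1 was 2.68-fold higher in the averaged fit while its level followed treatment more than line. It ran from 0.056 to 0.372 CPM in WT control and from 0.468 to 1.79 CPM in slincRosu3 control, and from 1.32 to 2.72 CPM in WT TCDD and 2.81 to 6.11 CPM in slincRosu3 TCDD. The integrin gene itga2.3 was 3.46-fold higher (adjusted p = 0.0154 by edgeR's quasi-likelihood test), but WT TCDD 3 and WT TCDD 4, at 3.68 and 2.69 CPM, lay among the slincRosu3 values of 2.05 to 6.5 CPM, and the other 6 WT libraries were at most at 0.934 CPM. In WT TCDD, those libraries were also the high ones for alox5b.1, alox5b.2 and LOC100332396. They are 2 of the 4 libraries that stood apart on the first component; its part in these levels was not tested.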
